A study of Homo sapiens with 9 samples.

Results

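The hexose transporters of enterocytes described here are 10 genes, SLC2A1, SLC2A2, SLC2A3, SLC2A5, SLC2A6, SLC2A8, SLC2A10, SLC2A12, SLC2A13 and SLC5A1, taken by symbol from a table of 60591 gene symbols. Messenger RNA was sequenced from uCaco-2, the undifferentiated, growing state of a human colon adenocarcinoma line, in 3 conditions of 3 biological replicates each. Control cells received fresh medium, a second group received 300 μM CoCl2, and the last received 5 μM of an oxyquinoline derivative (OD), all for 24 h and, by the labels, all with 0.5% DMSO. Both agents are used to mimic hypoxia, because they act on the prolyl hydroxylases that mark HIF for breakdown. A single cell line with no oxygen deprivation, no differentiated monolayer and a single time and dose per agent limits what the model stands for.

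Hexoses cross the enterocyte by 2 kinds of carrier. The sodium-coupled carrier SGLT1, encoded by SLC5A1, takes glucose and galactose up from the lumen against their gradient, while the GLUT proteins of the SLC2A family only let sugars move down a gradient. In the small intestine, the SLC2A5 protein GLUT5 carries fructose in at the brush border, and the SLC2A2 protein GLUT2 lets hexoses out towards the blood. GLUT1 and GLUT3, from SLC2A1 and SLC2A3, are the high-affinity glucose carriers of most growing cells, and SLC2A1 is a textbook target of HIF. SLC2A6 and SLC2A8 encode carriers of intracellular membranes, SLC2A10 and SLC2A12 encode GLUT10 and GLUT12, and SLC2A13 encodes a proton-coupled carrier of myo-inositol.

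Library totals ranged from 15998136 to 24209427 counts, and all 10 transporters passed the expression filter that left 15944 genes for testing. The 50 most abundant genes held 15.7% to 16.2% of the counts in control and OD libraries and 21.7% to 22.3% with CoCl2, and the TMM factors, which correct library sizes for unequal composition, lay at 0.770 to 0.795 with CoCl2 against 1.11 to 1.15 elsewhere. Scaling by library size alone moved the median over all genes with CoCl2 from -0.049 to -0.55 (log2 fold change). Changes with CoCl2 are therefore given under TMM factors, and with the other scaling where it alters a call. Mitochondrially encoded genes took 5.98% to 6.21% of the counts in control libraries, 6.91% to 7.19% in CoCl2 libraries and 4.88% to 5.01% in OD libraries. Of the 10 epithelial markers, EPCAM, CDH1, KRT8, KRT18 and KRT19 were at 685 CPM (counts relative to the TMM-scaled library size) or more in every library, CDX1 had no count in any library, LGALS4 stayed at or below 2.55 CPM, and the summed level of the list was 10970 to 11509 CPM in control libraries, 14235 to 15130 in CoCl2 libraries and 10512 to 11062 in OD libraries. Members of that list moved both ways with CoCl2: VIL1, the brush-border villin, fell from 612 to 112 CPM (454 with OD) and the claudin CLDN4 rose from 185 to 1342 CPM (373 with OD). Markers of leukocytes, vessels, fibroblasts and muscle summed to 53.5 to 63.0 CPM in control libraries, 63.6 to 66.7 in CoCl2 libraries and 63.5 to 69.0 in OD libraries, with LYZ the highest (means 35.8, 51.4 and 34.6 CPM) and 2 to 6 of the 14 at 0 in each library. Of the latter list, PDGFRB was called lower with CoCl2 (log2 fold change -2.31) and VWF higher (1.61, from 6 to 8 counts per control library to 16 to 20), and PECAM1 and COL1A1 stood at -0.80 and -0.49. The part of these shifts in the results below was not tested. In bulk RNA such as this, fewer cells of a type and less RNA per cell cannot be told apart.

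The 2 abundant transporters were SLC2A3 and SLC2A1, and SLC2A3 was the more abundant in all 9 libraries. Levels of different genes were compared per length, as CPM per kb of annotated exon. In control cells, SLC2A3 stood at 405 ± 9.27 CPM per kb (SD, n = 3), SLC2A1 at 99.7 ± 6.03, SLC2A8 at 24.5 ± 0.695, SLC2A6 at 3.60 ± 0.229, SLC2A2 at 1.81 ± 0.0843 and SLC2A5 at 0.505 ± 0.0583. The other 4, SLC2A10, SLC2A13, SLC5A1 and SLC2A12, lay between 0.0352 and 0.101 CPM per kb on average. Thus the carrier that defines sodium-driven uptake, SLC5A1, was near the bottom of the order, with 4 to 7 counts per control library. Neighbours in this order did not overlap between libraries down to SLC2A10, whereas SLC2A13, SLC5A1 and SLC2A12 overlapped with their neighbours and could not be ranked. The place of SLC2A10 above SLC2A13 rests on the annotated exon lengths of 4838 and 10023 bases. In CPM, SLC2A13 was the higher in control cells, at a mean of 0.718 against 0.490.

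**Figure D1:**
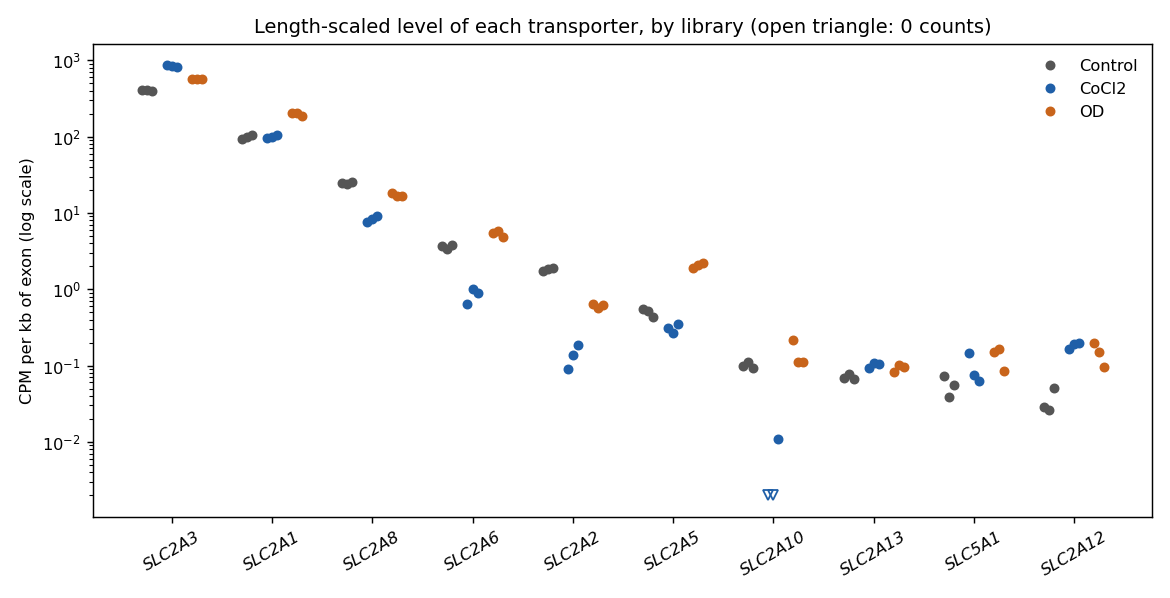
Level of each transporter in CPM per kb of exon on a log axis, with 1 point per library colored by condition and genes ordered by their control mean. SLC2A3 and SLC2A1 lie above the other 8 genes in all 9 libraries, and the 2 open triangles mark CoCl2 libraries without a count for SLC2A10.

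The order changed with treatment in its lower part. With CoCl2, SLC2A2 stood at 0.137 ± 0.0466 CPM per kb (SD, n = 3), where its libraries overlapped with those of SLC2A12 and SLC2A13, and SLC2A10 took the last place. With OD, SLC2A5 moved above SLC2A2, at 2.07 ± 0.146 against 0.611 ± 0.0349 CPM per kb, and their libraries did not overlap. Added up per length, the 10 genes came to 535 ± 2.83 CPM per kb in control, 948 ± 13.3 in CoCl2 and 801 ± 12.3 in OD libraries. SLC2A3 held 75.6% ± 1.34 of that sum in control, 88.4% ± 0.688 in CoCl2 and 72.0% ± 0.871 in OD libraries, and SLC2A1 held 18.6% ± 1.23, 10.6% ± 0.587 and 24.8% ± 0.810. These sums and shares therefore describe almost only SLC2A3 and SLC2A1.

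With CoCl2 against control, 6 of the 10 transporters were differentially expressed by edgeR's quasi-likelihood test. A call needed a Benjamini-Hochberg adjusted p below 0.05 together with a change of more than 1 on the log2 scale. SLC2A3 and SLC2A12 rose, and SLC2A2, SLC2A6, SLC2A8 and SLC2A10 fell. Over all tested genes, 43.2% were called in this comparison, 19.9% higher and 23.4% lower. The 10 had a median of -0.33 on that scale, and all genes -0.049. With OD against control, 4 were called, SLC2A5, SLC2A12 and SLC5A1 higher and SLC2A2 lower, where 13.3% of all genes were called, 9.09% higher and 4.16% lower. Their median was 0.55, against -0.010 for all genes. Both comparisons share the control libraries. By the adjusted p alone, without the fold, 7 passed with CoCl2 and 8 with OD, where 83.2% and 65.6% of all genes did. When library size alone was used, 1 of 6 called transporters was higher with CoCl2, in place of 2 of 6. With OD, RLE factors, upper-quartile factors and library size alone each gave 4 higher and 1 lower, which adds SLC2A1 to the rises.

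**Figure D2:**
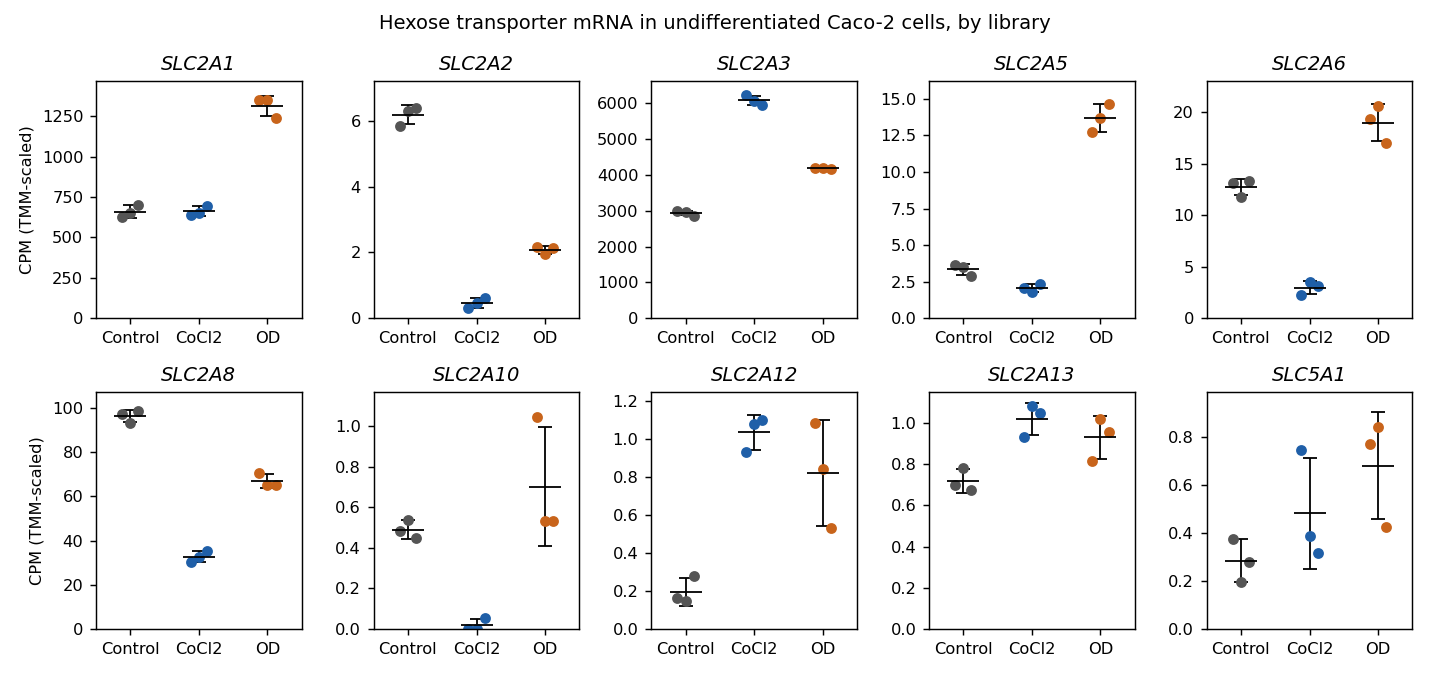
TMM-scaled CPM of each transporter in every library, with 1 point per library, the mean as a horizontal line and the SD as whiskers (n = 3), and axes that start at 0. SLC2A2 is lower in all treated libraries than in any control library, and SLC2A5 stands at 12.7 to 14.7 CPM with OD against 2.91 to 3.65 in control cells.

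SLC2A3 (minus strand, chromosome 12, GRCh38, 7919230 to 8019007) had 2991, 2956 and 2861 CPM in control replicates 1 to 3, then 6213, 6069 and 5951 with CoCl2 and 4192, 4189 and 4166 with OD. The 3 conditions formed separate groups, with CoCl2 the highest. With CoCl2 it rose by 1.05 on the log2 scale (standard error 0.039, edgeR adjusted p = 2.85e-34), and with OD the difference was 0.51 (standard error 0.039, edgeR adjusted p = 2.67e-18), under the threshold on the fold change. The call with CoCl2 depended on the scaling, with a log2 fold change of 0.95 by upper-quartile factors, 0.98 without a count filter and 0.54 by library size alone.

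SLC2A1 (minus strand, chromosome 1, 42925353 to 42958893) had 624, 652 and 703 CPM in control libraries, 642, 654 and 696 with CoCl2 and 1352, 1351 and 1243 with OD. Its CoCl2 libraries overlapped with the control libraries, and its OD libraries lay above both. The log2 fold change with OD was 0.996 (standard error 0.042, edgeR adjusted p = 7.35e-30), just under the threshold of 1, and it was past that threshold in 9 of 18 alternative analyses, which ranged from 0.97 to 1.04. Of its exonic bases, 7.51% lie opposite an unnamed gene. With CoCl2 the log2 fold change was 0.011, with a 95% confidence interval from -0.074 to 0.096 (edgeR adjusted p = 0.816). This value turned to -0.089 with upper-quartile factors and to -0.49 with library size alone, so its direction depended on the scaling, and it was not called in any of the 18 alternatives. The direct comparison put SLC2A1 lower with CoCl2 than with OD by 0.99 on the log2 scale (interval -1.07 to -0.90, edgeR adjusted p = 1.97e-30), just under the threshold. Its direction held under every scaling, and it was called in 7 of 18 alternatives, among them upper-quartile factors (-1.12) and library size alone (-1.53).

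A ratio of counts within a library needs no scaling between libraries. SLC2A3 had 4.07 to 4.79 counts for each count of SLC2A1 in control cells, 8.55 to 9.67 with CoCl2 and 3.10 to 3.35 with OD. The ratio lay above control with CoCl2 and below it with OD, and no condition overlapped with another. On the log2 scale the mean ratio was higher by 1.04 with CoCl2 and fell by 0.49 with OD relative to control cells, each with p = 0.1 by a two-sided exact permutation test, which is the smallest p that 3 libraries against 3 allow.

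**Figure D3:**
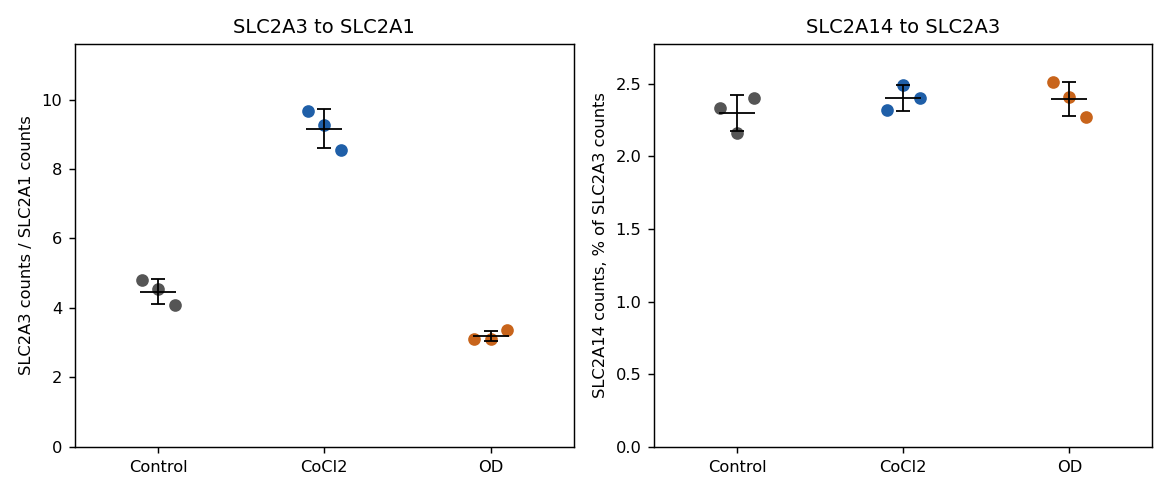
Ratio of SLC2A3 to SLC2A1 counts (left) and SLC2A14 counts as a percent of SLC2A3 counts (right) in each library, with the mean and SD (n = 3) and axes from 0. The left ratio separates all 3 conditions, and the right one stays between 2.16% and 2.51% in all 9 libraries.

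SLC2A3 has a close relative beside it on chromosome 12, SLC2A14, which encodes GLUT14. Of the 75-base windows in SLC2A3 transcripts, 6.92% also occur letter for letter in SLC2A14 transcripts, and among windows within coding exons the share was 18.8%. A read of that length from such a window cannot be assigned to either gene. The stretch below is given as an example, and is identical in a coding exon of SLC2A3 (chr12:7922886-7922960, minus strand, GRCh38) and of SLC2A14 (chr12:7817896-7817970, minus strand).
SLC2A3 and SLC2A14: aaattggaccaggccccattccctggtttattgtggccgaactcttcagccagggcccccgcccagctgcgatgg
SLC2A14 had 1226 to 1306 counts in control libraries, 1958 to 2727 with CoCl2 and 1782 to 2321 with OD. Its log2 fold changes were 1.11 with CoCl2 and 0.57 with OD, beside 1.05 and 0.51 for SLC2A3, and its count was a near-constant percentage of the SLC2A3 count. How far reads of SLC2A3 enter the SLC2A14 count was not tested. The pseudogenes SLC2A3P2 and SLC2A3P4 had 15 to 45 and 6 to 17 counts per library. Adding the SLC2A14 reads to SLC2A3 changed no call of SLC2A3 in the 3 comparisons.

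The intestinal carriers SLC2A2 and SLC2A5 went opposite ways with OD, where the former fell and the latter rose. With CoCl2 both were lower than in control cells, SLC2A5 by less than the threshold on the fold change under TMM factors. SLC2A2 (minus strand, chromosome 3, 170996347 to 171026743) had 109, 129 and 114 counts in control cells, 5, 6 and 12 with CoCl2 and 48, 44 and 40 with OD, or 6.19 ± 0.288, 0.468 ± 0.159 and 2.08 ± 0.119 CPM (SD, n = 3). It was the only one of the 10 called lower with both agents. The fall was 12.8-fold with CoCl2 (log2 fold change -3.68, standard error 0.226, edgeR adjusted p = 3.11e-23) and 2.97-fold with OD (log2 fold change -1.57, standard error 0.152, edgeR adjusted p = 3.66e-14). The size of the change with CoCl2 exceeded that of 98.0% of all tested genes. CoCl2 libraries were below the OD libraries by 2.11 on the log2 scale (edgeR adjusted p = 6.33e-10), and SLC2A2 kept its call in all 3 comparisons under each of the 17 alternatives that gave it a value.

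SLC2A5 (minus strand, chromosome 1, 9035106 to 9088478) had 68, 71 and 52 counts in control cells, 33, 23 and 45 with CoCl2 and 281, 309 and 276 with OD. With OD it rose 4.07-fold (log2 fold change 2.02, standard error 0.116, edgeR adjusted p = 6.60e-24), the largest called rise among the transporters with that agent except for the sparsely counted SLC2A12. Its level with CoCl2 was 2.06 ± 0.290 CPM (SD, n = 3) against 3.35 ± 0.387 in control cells, without overlap. That difference, a log2 fold change of -0.68 (edgeR adjusted p = 0.000541), did not reach the threshold on the fold change, and did so (-1.18) with library size alone. CoCl2 and OD libraries differed 6.51-fold (log2 difference -2.70, standard error 0.135, edgeR adjusted p = 1.15e-27).

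SLC5A1 (plus strand, chromosome 22, 32043261 to 32113029) was close to the detection limit in all conditions, with 7, 4 and 5 counts in control cells, 12, 5 and 6 with CoCl2 and 17, 19 and 8 with OD. The OD libraries were above every control library, and the CoCl2 libraries overlapped with both groups. By edgeR it was called higher with OD (log2 fold change 1.28, standard error 0.422, adjusted p = 0.00655). The call was lost with DESeq2 (log2 fold change 1.28, adjusted p = 0.0859 on 9 libraries) and without control replicate 2 (log2 fold change 1.06, edgeR adjusted p = 0.0501). With CoCl2 the difference was not detectable at this depth, at a log2 fold change of 0.75 with an interval from -0.22 to 1.72. CoCl2 libraries were lower than OD libraries past the threshold only with library size alone (-1.07).

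Carriers of intracellular membranes fell with CoCl2. SLC2A8 (plus strand, chromosome 9, 127397138 to 127408424) had 97.2, 93.4 and 98.6 CPM in control cells, 30.3, 32.4 and 35.4 with CoCl2 and 70.7, 65.0 and 65.1 with OD. The groups did not overlap and had the order control, OD, CoCl2. The fall with CoCl2 was 2.94-fold (log2 fold change -1.56, standard error 0.058, edgeR adjusted p = 1.78e-34), and the log2 fold change with OD was -0.52 (standard error 0.051, edgeR adjusted p = 5.24e-14), under the threshold.

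SLC2A6 (minus strand, chromosome 9, 133471094 to 133479127) had 13.1, 11.8 and 13.3 CPM in control cells, 2.24, 3.55 and 3.14 with CoCl2 and 19.4, 20.6 and 17.0 with OD. Control libraries therefore lay between those of the 2 agents. It fell 4.30-fold with CoCl2 (log2 fold change -2.10, standard error 0.131, edgeR adjusted p = 7.00e-23), and its OD libraries stood higher than control by 0.58 on the log2 scale (standard error 0.086, edgeR adjusted p = 2.23e-08), under the threshold. The agents differed by 2.69 on the log2 scale (interval of CoCl2 minus OD, -2.93 to -2.45), close to the -2.70 of SLC2A5.

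The last 3 genes had few counts. SLC2A10, at chromosome 20 from 46709649 to 46736347, had 9, 11 and 8 counts in control cells, 0, 0 and 1 with CoCl2 and 23, 12 and 10 with OD, where a count of 0 allows up to 3 counts. Summed over libraries, control cells had 23.7 times the scaled count of CoCl2 cells, with a counting interval from 3.92 to 969, and OD cells 34.2 times, from 5.83 to 1379. SLC2A10 with OD and control could not be distinguished (log2 fold change 0.52, interval -0.22 to 1.26). SLC2A12 (minus strand, chromosome 6, 133987581 to 134052624) had 3, 3 and 5 counts in control cells, 15, 14 and 21 with CoCl2 and 24, 19 and 10 with OD. It was the only one of the 10 called higher with both agents, by 2.38 on the log2 scale with CoCl2 (interval 1.53 to 3.24, edgeR adjusted p = 1.13e-06) and 2.07 with OD (interval 1.21 to 2.93, edgeR adjusted p = 2.60e-05). Of its exonic bases, 51.2% lie opposite exons of TBPL1, which had 159 to 273 counts per library and log2 fold changes of 0.56 with CoCl2 and -0.32 with OD. The authors used a stranded library kit, but the strand setting of the counting is not stated. Whether reads of TBPL1 entered the SLC2A12 count there was not tested. SLC2A13, at chromosome 12 from 39755025 to 40106089, had 12 to 23 counts in all libraries and no call, with log2 fold changes of 0.50 with CoCl2 and 0.37 with OD whose intervals include 0.

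**Figure D4:**
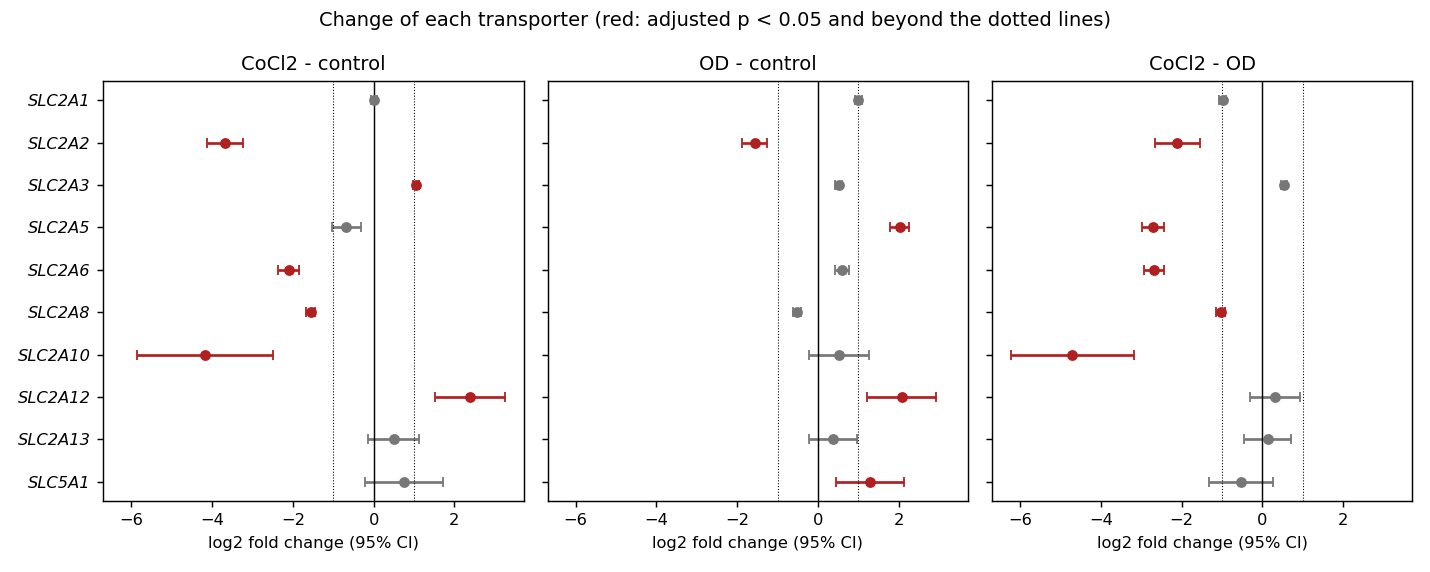
Log2 fold change of each transporter with its 95% confidence interval for CoCl2 minus control, OD minus control and CoCl2 minus OD, where red marks an adjusted p under 0.05 beyond the dotted lines at -1 and 1. SLC2A2 is red and negative in all 3 panels, and SLC2A1 lies at 0.011 with CoCl2 and at 0.996 with OD.

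The direct comparison of the agents called 5 transporters, SLC2A2, SLC2A5, SLC2A6, SLC2A8 and SLC2A10, all lower with CoCl2 than with OD, where 41.3% of all genes were called and 23.8% were lower. None of the 10 was called higher with CoCl2 by edgeR or by DESeq2, and at an unadjusted p under 0.05 only SLC2A3 was, at a log2 difference of 0.54 that turned to -0.0068 with library size alone. By the adjusted p alone 7 passed, where 83.5% of all genes did. The median difference of the 10 was -1.01, against -0.054 for all genes. Libraries of the 2 agents did not overlap for 7 of the 10 transporters, where the share over all tested genes is 83.8%. The corresponding counts were 8 of 10 for CoCl2 against control, where the background is 83.4%, and 9 of 10 for OD against control, where it is 68%. The number of transporters called lower was 4 with RLE factors, 6 with upper-quartile factors, which add SLC2A1, and 7 with library size alone, which adds SLC2A1 and SLC5A1. SLC2A8 sat at the threshold in the direct comparison (log2 difference -1.03), and its call was lost with RLE factors (-0.99), without CoCl2 replicate 1 (-0.97) and without OD replicate 1 (-0.996).

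**Figure D5:**
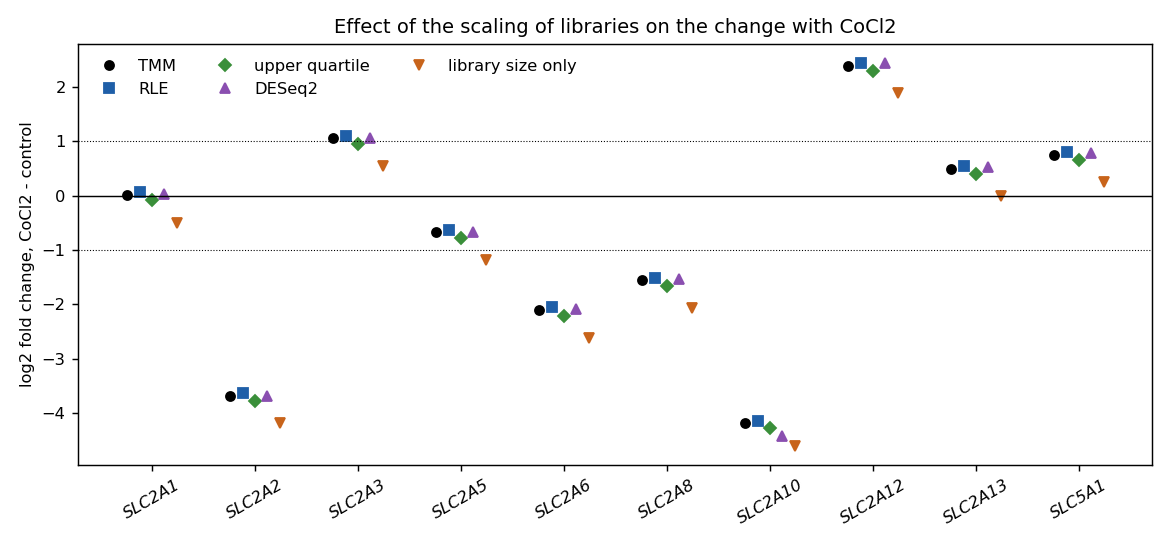
Log2 fold change of each transporter for CoCl2 minus control under 5 ways of scaling the libraries, with dotted lines at -1 and 1. Library size alone lies lowest for every gene, which takes SLC2A3 to 0.54 and SLC2A1 to -0.49, while SLC2A2, SLC2A6, SLC2A8, SLC2A10 and SLC2A12 stay beyond the dotted lines and SLC2A5 passes -1 only there.

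Promoter sequence is shown for 5 of the carriers, as the 250 bases before the RefSeq start on GRCh38.p14, from 5′ to 3′ on the strand of the gene. RefSeq promoters matched 9 of the 10 symbols, and SLC2A3, the most abundant carrier, had no entry. The RefSeq starts of SLC2A1, SLC2A2, SLC2A5 and SLC2A6 lie inside the GENCODE genes given above, that of SLC2A5 the deepest. Their windows therefore overlap those genes. Capitals mark the core of the HIF response element (ACGTG or GCGTG) and the TATA motif TATAA, each searched on both strands, so that a match on the other strand appears as its reverse complement.
SLC2A1 (chr1:42958869-42959118, minus strand): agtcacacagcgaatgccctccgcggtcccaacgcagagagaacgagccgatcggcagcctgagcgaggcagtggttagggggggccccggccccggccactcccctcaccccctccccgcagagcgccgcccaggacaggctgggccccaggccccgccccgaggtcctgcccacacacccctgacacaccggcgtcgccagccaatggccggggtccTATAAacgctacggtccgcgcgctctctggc
SLC2A2 (chr3:171026721-171026970, minus strand): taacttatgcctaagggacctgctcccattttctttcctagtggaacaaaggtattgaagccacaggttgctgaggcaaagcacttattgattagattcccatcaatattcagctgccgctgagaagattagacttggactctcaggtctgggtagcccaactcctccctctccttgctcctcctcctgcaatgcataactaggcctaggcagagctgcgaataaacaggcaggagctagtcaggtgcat
SLC2A5 (chr1:9069636-9069885, minus strand): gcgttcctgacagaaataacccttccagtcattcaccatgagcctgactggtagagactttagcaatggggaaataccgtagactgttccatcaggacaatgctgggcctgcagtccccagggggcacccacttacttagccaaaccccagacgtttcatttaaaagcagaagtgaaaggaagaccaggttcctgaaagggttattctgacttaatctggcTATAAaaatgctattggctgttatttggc
SLC2A6 (chr9:133479100-133479349, minus strand): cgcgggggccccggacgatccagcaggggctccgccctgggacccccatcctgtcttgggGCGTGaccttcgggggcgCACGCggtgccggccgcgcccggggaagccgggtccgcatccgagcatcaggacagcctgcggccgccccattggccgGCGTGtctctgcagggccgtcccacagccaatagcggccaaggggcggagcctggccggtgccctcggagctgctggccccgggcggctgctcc
SLC5A1 (chr22:32043011-32043260, plus strand): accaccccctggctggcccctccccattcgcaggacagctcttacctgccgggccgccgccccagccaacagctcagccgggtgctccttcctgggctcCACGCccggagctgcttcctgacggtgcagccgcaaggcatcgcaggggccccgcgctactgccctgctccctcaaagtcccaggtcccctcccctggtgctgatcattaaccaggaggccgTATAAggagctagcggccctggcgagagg
The SLC2A6 window held 3 GCGTG matches and the SLC5A1 window 1, and those of SLC2A1, SLC2A2 and SLC2A5 held neither HIF core, which says only that these letters are not in these windows. Among all 35116 promoters in the table, 43.2% held ACGTG or GCGTG in the same window. TATAA began 31 bases before the start of SLC2A1 and 29 bases before the starts of SLC2A5 and SLC5A1, and was present in 18.9% of all promoters. Apart from the 5 shown, SLC2A10 held 1 HIF core and SLC2A13 a palindromic CACGTG read as ACGTG on both strands, while SLC2A8 and SLC2A12 held none.

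Genes around hexose transport were taken from lists by function, and calls with CoCl2 that rest on the scaling are marked. Their counts stand against 43.2% of all genes called with CoCl2 and 13.3% with OD, and nothing particular to a list is read from them. Of the 4 tested among the other SLC2A genes, SLC2A14 was called higher and SLC2A4, the insulin-responsive GLUT4, lower with CoCl2 (log2 fold changes 1.11 and -2.80), and SLC2A14 was no longer called with library size alone. SLC2A4 was near the detection limit, with 6 to 11 counts per control library and 0 to 2 with CoCl2. With OD none of the 4 was called by edgeR or DESeq2, although 2 had an unadjusted p under 0.05. Of 8 tested sodium-coupled and other sugar carriers, 2 were higher with CoCl2, SLC5A11 (log2 fold change 3.28) and SLC45A4 (1.86), and 4 were lower, including SLC5A9 (-3.35) and SLC5A2 (-1.68), which encode the glucose carriers SGLT4 and SGLT2. Counts per library were low, at 4 to 5 in control and 29 to 52 with CoCl2 for SLC5A11. For SLC5A2 they were 11 to 12 and 2 to 5, and for SLC5A9 53 to 75 and 4 to 7. None of the 8 was called with OD by edgeR or DESeq2, although 5 had an unadjusted p under 0.05.

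Enzymes that trap or convert the sugar came next. Among 9 tested genes of fructose and galactose entry, 5 fell with CoCl2 and AKR1B1, the aldose reductase of the polyol pathway, rose (log2 fold change 1.36, or 0.85 and not called with library size alone). Those that fell included GALK1 and GALT, which start galactose use (-3.38 and -2.08), KHK, the fructokinase (-2.53), and TKFC (-2.06). Counts of KHK were 77 to 95 per control library and 7 to 17 with CoCl2. None of the 9 was called with OD by either tool, although 8 passed an unadjusted p of 0.05, with 3 higher and the rest lower. Of 5 tested hexose-phosphorylating or dephosphorylating enzymes, HK2, HKDC1 and ADPGK rose with CoCl2 (log2 fold changes 1.31, 1.33 and 1.40), and HK1, HK2 and HKDC1 with OD (1.81, 1.66 and 1.22). With library size alone the 3 rises with CoCl2 lay at 0.81 to 0.89 and none was called higher. Of 3 tested disaccharidases, the maltase MGAM rose with both agents (log2 fold changes 1.82 and 1.10) and lactase, LCT, fell with CoCl2 (-1.55). Both had few counts, MGAM 6 to 13 per control library, 24 to 33 with CoCl2 and 21 to 23 with OD. LCT had 32 to 40 in control and 3 to 14 with CoCl2.

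Proteins that set how much transporter reaches the surface included 3 called higher and 1 lower with CoCl2 among 12 tested, and 1 higher with OD, so 4 of 12 and 1 of 12 were called where 43.2% and 13.3% of all genes were. With library size alone the counts with CoCl2 became 2 higher and 5 lower. ARRDC4 and TXNIP encode arrestin-like proteins that remove glucose transporters from the membrane. The log2 fold changes of ARRDC4 were 3.15 with CoCl2, which was called, and 0.96 with OD, and those of TXNIP were 0.69 and 1.76, the latter called. SGK1, a kinase that raises transporter activity, rose with CoCl2 (2.79), as did the retromer gene VPS26A (1.33, or 0.83 with library size alone). The retromer genes VPS35 and VPS29 went opposite ways with CoCl2 (0.74 and -0.65), and neither was called. The gene called lower with CoCl2 was TBC1D1 (-1.08). Of 13 tested transcription factors, HIF2A-encoding EPAS1 rose with both agents (1.30 and 1.11, the former 0.80 and not called with library size alone). MLXIPL, which encodes the sugar-responsive factor ChREBP, fell with CoCl2 (-3.35) and rose with OD (1.17). Counts of MLXIPL were 45 to 65 per control library, 3 to 7 with CoCl2 and 131 to 158 with OD. GATA4, a factor of intestinal sugar genes, fell with CoCl2 (-3.06), at 18 to 23 counts per control library and 0 to 3 with CoCl2. Of 3 tested subunits of the sodium pump, ATP1B3 was called higher with CoCl2 (1.07), and not with library size alone (0.56), and none was called with OD by either tool, with 2 at an unadjusted p under 0.05.

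Genes with the most similar pattern were sought among 10422 other genes that averaged 5 CPM or more, by the root mean square difference of log2 CPM relative to the control mean over the 9 libraries. Closest to SLC2A1 were IRF1 (0.065 on the log2 scale), CASC19 (0.071) and PC (0.079), with log2 fold changes of 0.98 to 1.05 with OD and -0.017 to 0.066 with CoCl2. Among those closest to SLC2A2 were APELA (0.177) and ERVMER34-1 (0.210), which fell by 3.64 and 3.76 on the log2 scale with CoCl2. For SLC2A5 they were HYAL3 (0.209), PGM1 (0.217) and GDPD2 (0.243), with log2 fold changes of 1.79 to 1.93 with OD. SLC5A1, with its few counts, had no neighbor nearer than SEMA7A (0.324), followed by PLCD1 (0.328) and EFNB2 (0.344).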

How the data were processed

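Messenger RNA of uCaco-2 cells was measured in 9 libraries, 3 per condition. The authors assessed reads with FastQC 0.11.9, removed adapters with cutadapt 2.10, aligned to GRCh38.p13 with STAR 2.7.5b and counted on GENCODE genes. They deposited raw counts per gene symbol, without normalization. The counting tool and its strand and multi-mapping settings are not given in the sources used here. All 9 columns were mapped by title and 0 columns were left unused.

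edgeR 4.0.16 (R 4.3.3) was fitted to the deposited counts over all 9 libraries with TMM factors, its expression filter and a robust quasi-likelihood fit with 1 mean per condition, and p-values were adjusted by Benjamini-Hochberg over all 15944 tested genes. Standard errors were taken as the log2 fold change over the root of the F statistic. DESeq2 1.42.0, other scalings, filters and left-out replicates were alternatives. Adding SLC2A14 reads to SLC2A3 was chosen after seeing the data. The transporters and lists were chosen with earlier results of these data known. Named genes were the transporters, their near copies, up to 4 called genes per list with the largest changes, and the 3 nearest patterns for SLC2A1, SLC2A2, SLC2A5 and SLC5A1. AKR1B1, TBC1D1, VPS29 and VPS35 were added after their values were seen. Some genes that this rule names are not reported here. Exon lengths came from GENCODE release 44 on GRCh38, and sequences from RefSeq and that genome. The fits were tested on simulated counts with as many rises as falls among the changed genes. That simulation held no shift in composition like the one with CoCl2, so it cannot test the choice of scaling. No replicates were duplicates: chi-square over degrees of freedom was 1.74 to 3.05 between them. At 15998136 to 24209427 counts per library, genes near 10 counts had standard errors of 0.299 to 0.487 against control (SLC2A13 and SLC5A1), and SLC2A3 had 0.039. Intervals on counts cover counting error only.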

Additional observations from a re-analysis of the deposited data

How the results depend on the processing

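With at least 10 counts in every library, which leaves 6 transporters, 3 were called with CoCl2 and 2 with OD against control, in place of 6 and 4. The 2 with OD were SLC2A5 and SLC2A1, of which SLC2A1 was not called in the main fit. SLC2A2, SLC2A12 and SLC5A1, called with OD in the main fit, did not pass that filter. By the adjusted p alone, 8 were called with OD. Leaving out each library in turn gave 6 calls throughout with CoCl2, 3 to 5 with OD and 4 to 6 between the agents. The replicate numbers were not used to pair the samples in the main fit. Deviations of same-numbered libraries correlated at -0.0049 to 0.038, and those of libraries with other numbers at -0.047 to 0.025. A library's best match in another condition had its own number in 10 of 18 cases. These weak correlations do not settle whether the numbers mark a pairing. With the replicate number as a block the counts were again 6, 4 and 5. SLC2A1 with CoCl2 turned to -0.089 with upper-quartile factors, -0.49 with library size alone, -0.054 when no count filter was used, -0.017 with at least 10 counts per library, -0.0012 with DESeq2 on 6 libraries and -0.0023 with edgeR on 6 libraries, and ranged from -0.028 to 0.052 without 1 library. SLC2A13 turned to -0.0071 with CoCl2 with library size alone, and between the agents to -0.0020 with upper-quartile factors and -0.41 with library size alone. With library size alone, SLC2A3 and SLC2A12 also turned between the agents, to -0.0068 and -0.23. The cause of these turns was not tested beyond the scaling itself. Depth limits SLC2A10, SLC2A12, SLC2A13 and SLC5A1, at 0 to 24 counts per library. It also limits SLC2A4, SLC5A2, SLC5A11, MGAM, GATA4 and VWF among the other genes named. In CoCl2 libraries, few counts also limit SLC2A2, SLC5A9, KHK, LCT, MLXIPL and PDGFRB.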
